A study of Mus musculus with 60 samples.

Results

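Immediate early genes other than the Fos and Jun families were read in primary mouse hepatocytes with and without the receptor Met: Egr1, Atf3, Klf6, Ier2, Ier3, Btg2 and Zfp36. The members were chosen by gene symbol in the array's probe annotation, and 7 of the 14442 genes on the array were taken, each with 1 probe. Over the 5 times together, Egr1, Ier3 and Zfp36 were lower in Met knockout (KO) than in control (WT) hepatocytes, Ier3 by a log2 difference of -0.84 ± 0.12, Egr1 by -0.57 ± 0.12 and Zfp36 by -0.49 ± 0.09 (difference ± standard error, SE). After addition of hepatocyte growth factor (HGF), Btg2 and Atf3 fell in WT at 12 h, by 0.90 ± 0.18 and 0.76 ± 0.16 on the log2 scale. No increase over untreated at 0.5 or 2 h of HGF was called for any member in either genotype. The tests of Ier3 and Zfp36 rest on a looser filter than those of the other 5. All directions take the deposited values as sample over reference RNA, which the labels do not state.

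Immediate early genes are switched on within minutes of a stimulus by transcription factors that are already present, without new protein synthesis. HGF binds Met, a receptor tyrosine kinase, and the kinase cascades downstream of it activate the serum response factor with its partners and the CREB and ATF family, which bind the CArG box and the cyclic AMP response element. In liver this gene class is known for its rapid induction after partial hepatectomy and on hepatocyte isolation and plating.

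The study compared 10 groups of 3 replicates: WT and KO hepatocytes, untreated (0 h) or at 0.5, 2, 12 and 24 h after 50 ng/ml HGF was added. WT is labelled a Cre control of strain C57BL, and KO carried Alb-Cre +/- and Met Fl/Fl on strain 129SV/C57BL6, so genotype and strain cannot be told apart. Alb-Cre uses the albumin promoter, which drives Cre in hepatocytes, so other liver cells would keep Met. All donors were male mice of 9-10 weeks, their hepatocytes were plated with serum, moved to serum-free medium and treated the next day, and the labels give triplicate cultures from separate mice without saying whether the times share them. The dose stands as nM in place of ng/ml in another label field, and that field gives 0.5 h for the 12 h samples, whose titles were followed here. No untreated culture of the later times was analysed here, so HGF and time in culture cannot be told apart.

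Each replicate was read on 2 arrays with exchanged dyes (Cy5 and Cy3), 60 arrays in all, against RNA pooled from WT hepatocytes. A level is therefore a log2 ratio to that pool, the mean of both orientations, and levels of different genes cannot be ranked against each other. The labels do not say which channel is the numerator. Values were taken as sample over reference in both orientations: the genotype difference averaged over time had r = 0.44 between the Cy5 and the Cy3 arrays across the tested probes, which are not independent, and 97% of the 100 probes with the largest Cy5 difference had the same sign in Cy3, as did 87% of the 100 with the largest Cy3 difference. Yet 23 of the 30 dye pairs of a replicate correlated below 0 over all probes (r from -0.68 to 0.19). So a shared sign of the 2 orientations is likely but not settled. These values would be the same if both were reference over sample, which would reverse every difference given here. With the sign of all Cy3 arrays turned, no member was called in any comparison between KO and WT or against untreated. The averaged Egr1 difference was then -0.051. With that sign 1 of the 14580 tested probes was called in the averaged comparison, against 1488 as reported. The Cy5 array of WT 0 h replicate 3 opposed other Cy5 arrays (19 pairs with r under -0.3, down to -0.52), so its direction is not settled and results are also given with its sign turned, and KO 24 h was the noisiest group (residual SD 0.43 against 0.17 in WT 2 h). The doubted replicates below are WT 0 h replicate 3 and KO 24 h replicate 2. Array numbers fall into 4 sets: the 0.5 and 2 h cultures share 1 set (except the third KO replicate at 2 h), which holds no untreated replicate, so for 0.5 and 2 h against untreated the set and HGF can hardly be told apart, whereas KO and WT at 1 time mostly share a set.

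The 5' flanks of Zfp36, Btg2, Atf3 and Ier3, each with a called change, are shown as the 250 bases before the start annotated by RefSeq (build GRCm38.p6), since response elements of the pathway are often found there. The flank of Klf6 was searched too. Searched on both strands were the CArG box, TGACGTCA (the full cyclic AMP response element), its core TGACG, which lies inside it, and the Egr sites GCGGGGGCG and GCGTGGGCG, and matches are in capitals.
Zfp36 (chr7:28379229-28379478, minus strand): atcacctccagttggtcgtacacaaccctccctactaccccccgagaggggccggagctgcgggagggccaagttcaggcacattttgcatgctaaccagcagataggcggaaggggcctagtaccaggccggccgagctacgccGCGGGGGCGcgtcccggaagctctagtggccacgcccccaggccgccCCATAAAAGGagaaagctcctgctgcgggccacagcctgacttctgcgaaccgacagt
Btg2 (chr1:134079156-134079405, minus strand): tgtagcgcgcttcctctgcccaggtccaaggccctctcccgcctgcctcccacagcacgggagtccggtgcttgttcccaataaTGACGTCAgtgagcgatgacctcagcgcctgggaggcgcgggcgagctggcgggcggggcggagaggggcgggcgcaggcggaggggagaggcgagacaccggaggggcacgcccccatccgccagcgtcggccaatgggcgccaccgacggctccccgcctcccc
Atf3 (chr1:191183334-191183583, minus strand): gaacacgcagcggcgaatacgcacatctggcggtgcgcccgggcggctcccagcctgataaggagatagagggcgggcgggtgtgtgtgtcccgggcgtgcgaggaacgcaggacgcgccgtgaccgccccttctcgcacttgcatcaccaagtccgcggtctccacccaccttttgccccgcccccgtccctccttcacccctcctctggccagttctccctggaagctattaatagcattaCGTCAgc
Ier3 (chr17:35821463-35821712, plus strand): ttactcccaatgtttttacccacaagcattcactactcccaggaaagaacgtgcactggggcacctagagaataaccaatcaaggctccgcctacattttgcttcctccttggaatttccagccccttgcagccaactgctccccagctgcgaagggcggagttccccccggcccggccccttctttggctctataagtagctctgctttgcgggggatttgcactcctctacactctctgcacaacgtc
Zfp36 held a CArG box from base 58 to base 49 before the start and GCGGGGGCG from 105 to 97. These are held by 1.47% and 2.57% of the 32851 RefSeq windows of this length. Btg2 held TGACGTCA from 166 to 159, as 1.55% of windows did. In Atf3 the core alone was found, on the opposite strand from 7 to 3, as in 17.8% of windows. None of the searched motifs was in the Ier3 or Klf6 windows, and GCGTGGGCG, held by 0.536% of windows, was in none of the 5 flanks searched. A match describes the letters only.

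**Figure D1:**
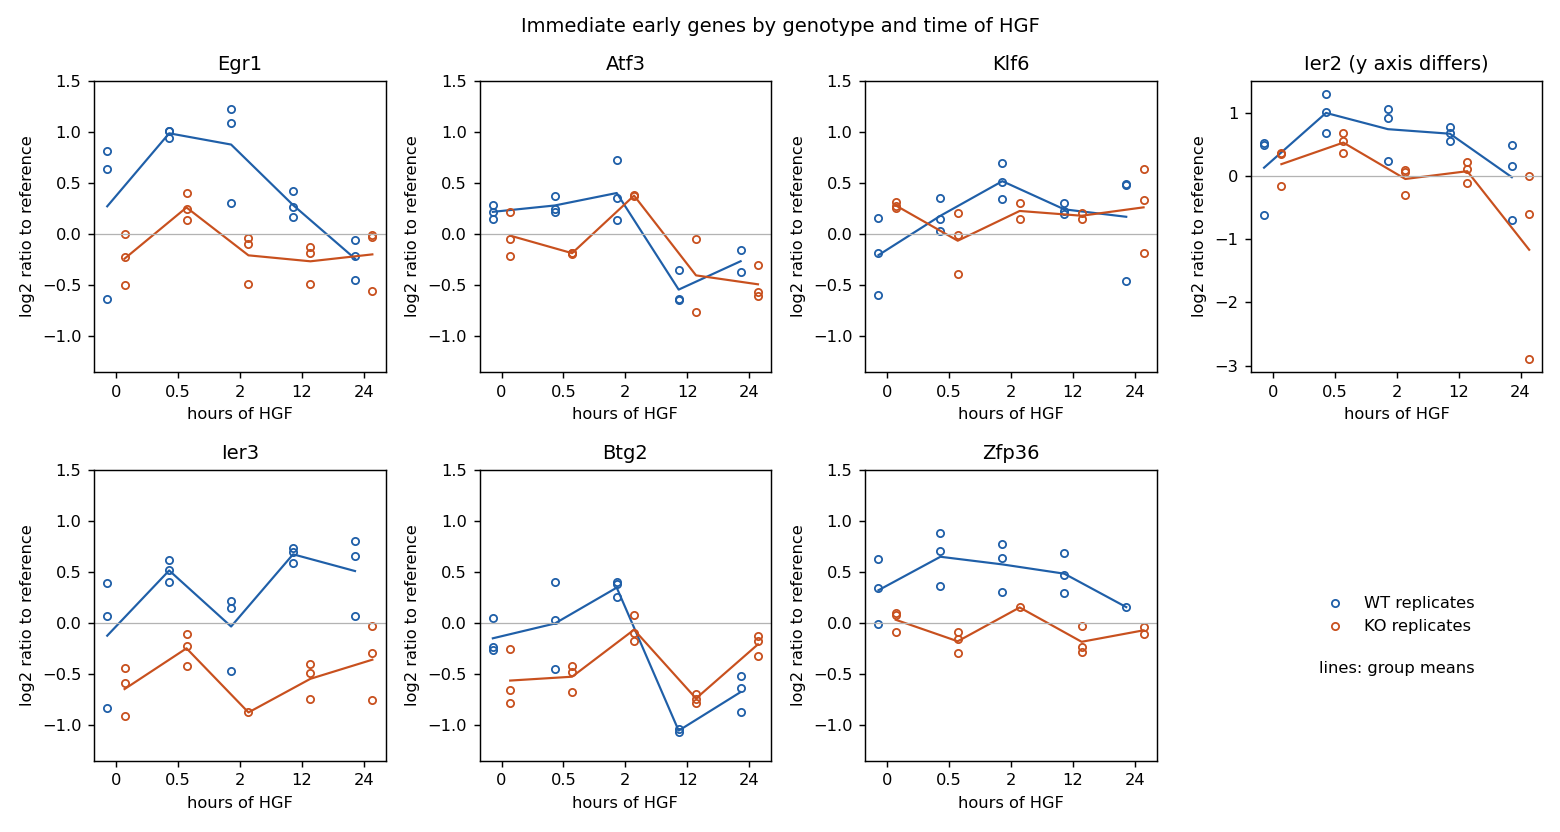
Log2 ratio to the WT pool (y axis) of each member against hours of HGF (x axis, not to scale), with 1 point per replicate, WT in blue and KO in orange, and lines through the group means. Egr1, Ier3 and Zfp36 lay lower in KO at most times, and the Ier2 panel has its own axis because 1 KO 24 h replicate stood at -2.89.

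The first question was whether hepatocytes without Met differ in these genes at a given time of HGF. Testing required both orientations in 2 or more of the 3 replicates of every group, which 14580 of 21997 probes had. A call is a limma p (two-sided) that stayed under 0.05 after Benjamini-Hochberg adjustment over all of these probes. Egr1, Atf3, Klf6, Ier2 and Btg2 passed this filter. Ier3 and Zfp36 did not, because at KO 2 h a single replicate of each had both orientations, and so did a single WT 24 h replicate of Zfp36. For these, values are given throughout and tests come from a fit with a looser filter, over 17834 probes. It required at least 1 replicate per group and most of the 30 replicates in all. The plan gave probes that failed the first filter values and no test, and held the looser fit as an alternative only.

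At single times none of the 25 results of the 5 tested members was called between KO and WT. The share called among all tested probes was 0.0617% at 0 h, 4.3% at 0.5 h, 0.432% at 2 h, 2.84% at 12 h and 4.77% at 24 h. In their means all 5 members were lower in KO than WT at 0.5 and at 2 h, where 55.4% and 46.8% of all tested probes were lower. KO replicates lay wholly below WT replicates for 3 of the 5 at 0.5 h (Egr1, Ier2, Atf3), where 22.5% of all tested probes did so, and for 4 of the 5 at 2 h (Egr1, Ier2, Btg2, Klf6), where 11% did. At 12 h it was 2 of 5 (Egr1, Ier2) beside 14.2% of all probes, and it was none at 0 h (4.46% of all) and none at 24 h (7.1% of all). In the other direction, KO replicates lay wholly above WT replicates for Klf6 at 0 h and for Btg2 at 12 and 24 h. The share of all probes lying wholly above was not counted. Averaged over the 5 times, 1 of the 5 members was called (Egr1), against 10.2% of all tested probes.

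**Figure D2:**
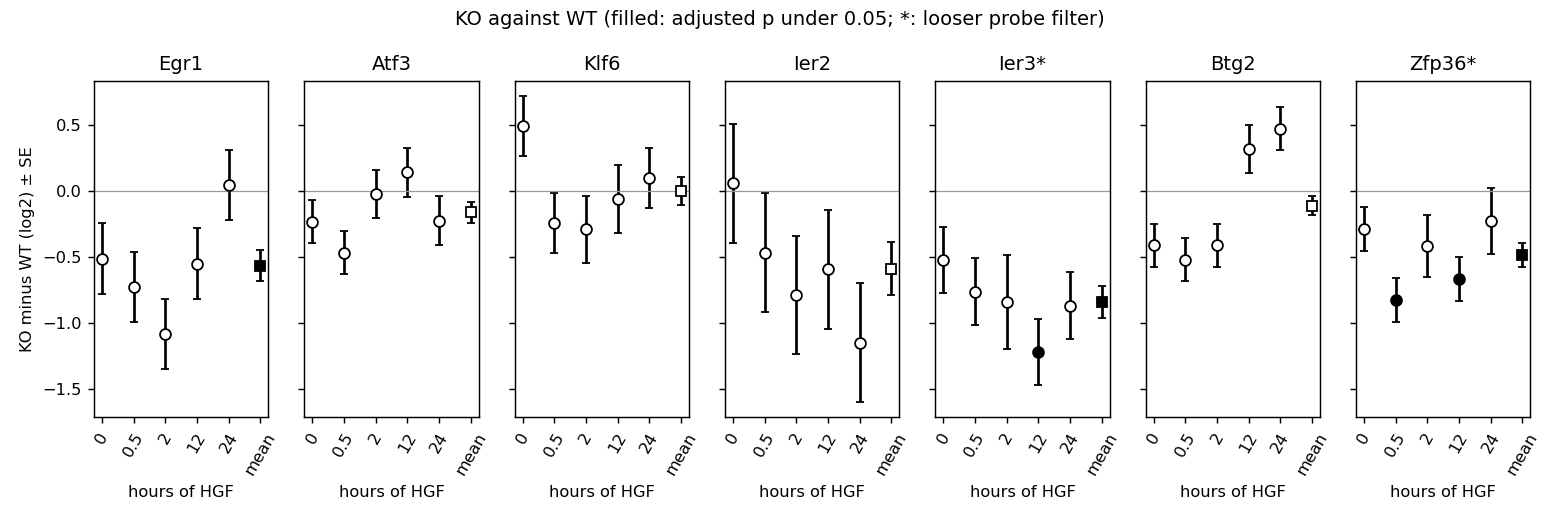
KO minus WT log2 difference ± SE (y axis) at each time of HGF and averaged over the 5 times (square, marked mean), 1 panel per member, with filled symbols for an adjusted p under 0.05. The averaged squares of Egr1, Ier3 and Zfp36 are filled, and Btg2 changes side between 2 and 12 h.

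Egr1, a zinc finger transcription factor that binds GC-rich promoters, was the member with the largest genotype difference at 2 h. At 2 h of HGF the WT replicates read 0.31, 1.23 and 1.09 and the KO replicates -0.0385, -0.0925 and -0.49. The groups did not overlap, and the difference of -1.09 ± 0.27 (2.12-fold) missed the threshold (adjusted p = 0.0659, or 0.0385 with the sign of the doubted WT 0 h array turned). WT replicate 1 at 2 h stood below the others, and its Cy3 array read -1.01 against 1.63 in Cy5, and without that replicate the difference was -1.37 and called (adjusted p = 0.0255). At 0.5 h WT read 1.01, 1.01 and 0.94 and KO 0.14, 0.24 and 0.40. All KO replicates lay below all WT replicates, by -0.73 ± 0.27 (adjusted p = 0.115). The difference was -1.44 on the Cy3 arrays and -0.0087 on the Cy5 arrays. Fitted on the 0.5 h groups alone it was called (adjusted p = 0.00327). Over all times, fits on the compared groups alone called 4.27% of the genotype results of all probes, against 2.48% as reported.

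Untreated WT replicates of Egr1 read 0.81, 0.64 and -0.63 and untreated KO replicates -0.22, 0.004 and -0.50. The third WT value comes from the replicate whose Cy5 array is in doubt, and the groups overlapped through it (-0.51 ± 0.27, adjusted p = 0.99). With that array turned, this replicate read -0.25 and still lay among the KO values. Its Cy3 array read -0.88. At 12 h WT read 0.42, 0.16 and 0.27 and KO -0.12, -0.49 and -0.18, without overlap (-0.55 ± 0.27, adjusted p = 0.352). At 24 h WT read -0.052, -0.22 and -0.45 and KO -0.027, -0.008 and -0.56, and the 2 groups were mixed (0.042 ± 0.27, adjusted p = 0.956). Averaged over time, Egr1 was 1.48-fold lower in KO (-0.57 ± 0.12, adjusted p = 0.00211), the call held in all 30 fits that left out 1 replicate, and with the sign of the doubted WT 0 h array turned it was -0.59 (adjusted p = 9.7e-05). On the Cy5 arrays alone it was -0.62 (adjusted p = 0.00464), and on the Cy3 arrays alone -0.52 without a call (adjusted p = 0.149). In the order of its group means, Egr1 was highest in WT at 0.5 h (0.99) and 2 h (0.88), followed by WT 12 h (0.29), WT 0 h (0.27) and KO 0.5 h (0.26). The other 5 groups, KO at 24, 2, 0 and 12 h and WT at 24 h, stood between -0.20 and -0.27. With the doubted WT 0 h array turned, WT 0 h (0.40) came before WT 12 h, and with all Cy3 arrays turned WT 0.5 h was the lowest group (-0.23). As reported, KO 0.5 h and KO 24 h were the only neighbours in this order whose replicates did not overlap.

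Ier3, a stress-inducible protein that regulates survival and kinase signalling, had a lower mean in KO at every time. Untreated, WT read 0.39, 0.067 and -0.83 and KO -0.44, -0.59 and -0.91. At 0.5 h WT read 0.40, 0.52 and 0.62 and KO -0.22, -0.42 and -0.10. The untreated groups overlapped only through the doubted WT replicate, and the 0.5 h groups did not overlap. At 2 h WT read -0.47, 0.15 and 0.22, and the 1 KO replicate with both orientations read -0.88. At 12 h WT read 0.59, 0.74 and 0.69 and KO -0.49, -0.75 and -0.40, without overlap. With all Cy3 arrays turned the 12 h groups overlapped, WT from 0.511 to 0.69 and KO from 0.2745 to 0.546. At 24 h WT read 0.80, 0.66 and 0.0675 and KO -0.29, -0.0335 and -0.75, again without overlap.

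Under the looser filter, Ier3 was 2.33-fold lower in KO at 12 h (-1.22 ± 0.25, adjusted p = 0.00791, or 0.0767 on the Cy5 arrays alone), where 2.54% of all probes tested that way were called. It was 1.79-fold lower averaged over time (-0.84 ± 0.12, adjusted p = 7.0e-05), against 8.98% of probes. The averaged difference was called on the Cy5 arrays alone (-0.93, adjusted p = 0.00326) and on the Cy3 arrays alone (-0.76, adjusted p = 0.000392), without both doubted replicates it was -0.94, and with the doubted WT 0 h array turned it was -0.92. The other times missed the threshold, with -0.76 ± 0.25 at 0.5 h (adjusted p = 0.0823), -0.84 ± 0.35 at 2 h (adjusted p = 0.505) and -0.87 ± 0.25 at 24 h (adjusted p = 0.0539). Untreated, the difference was -0.52 ± 0.25 (adjusted p = 0.946). Of 40 alternative settings, 7 called Ier3 at 0.5 h, 10 at 24 h and 0 untreated. The 12 h call was lost in 3 of them and the averaged call in 1. The averaged value includes 2 h, where KO is 1 replicate, and no fit without that replicate could be made.

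Zfp36 encodes tristetraprolin, which binds AU-rich elements and speeds the decay of cytokine and other short-lived mRNAs. At 0.5 h WT read 0.36, 0.70 and 0.88 and KO -0.29, -0.16 and -0.0885. At 12 h WT read 0.29, 0.47 and 0.69 and KO -0.28, -0.0335 and -0.24. The genotypes did not overlap at either time. Untreated, WT read 0.62, 0.34 and -0.007 and KO 0.098, -0.085 and 0.0785, which overlapped. At 2 h WT read 0.31, 0.64 and 0.77 against a single KO value of 0.15. At 24 h a single WT value of 0.155 stood against KO values of -0.036 and -0.11.

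The looser filter called Zfp36 lower in KO at 0.5 h by 1.78-fold (-0.83 ± 0.17, adjusted p = 0.00983), where 4.33% of probes were called. The difference was -0.86 on the Cy5 arrays (adjusted p = 0.313) and -0.80 on the Cy3 arrays (adjusted p = 0.0138), and without WT 0.5 h replicate 3 the call was lost (adjusted p = 0.0606). It also called it at 12 h (-0.67 ± 0.17, adjusted p = 0.0349) and averaged over time (-0.49 ± 0.09, 1.40-fold, adjusted p = 0.00111). The averaged call held on the Cy5 arrays alone (adjusted p = 0.018) and on the Cy3 arrays alone (adjusted p = 0.0438). The 12 h call did not hold on 1 dye, being -1.03 in Cy5 and -0.30 in Cy3 (adjusted p = 0.103 and 0.574), and was kept in 24 of 28 fits without 1 replicate. The 4 fits that lost it left out KO 12 h replicate 1, KO 12 h replicate 3, WT 12 h replicate 2 and WT 12 h replicate 3 (adjusted p up to 0.14). Differences at 0 h (-0.29 ± 0.17), 2 h (-0.42 ± 0.23) and 24 h (-0.23 ± 0.25) were not called, beside 0.0393%, 0.409% and 3.77% of probes. Together, 5 of the 12 genotype results of Ier3 and Zfp36 were called.

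Ier2, a small nuclear protein of the same induction class, showed the same order in WT and KO at 0.5, 2 and 12 h but a large error. At 0.5 h WT read 0.682, 1.02 and 1.29 and KO 0.6755, 0.36 and 0.55. At 2 h WT read 0.245, 0.92 and 1.06 and KO 0.056, 0.099 and -0.30. At 12 h WT read 0.55, 0.77 and 0.69 and KO 0.10, -0.10 and 0.23. No KO replicate reached a WT replicate at these times, though at 0.5 h the nearest values were 0.682 and 0.6755. Untreated, WT read 0.50, 0.515 and -0.62 and KO 0.37, 0.35 and -0.16, with full overlap. At 24 h WT read 0.49, 0.16 and -0.70 and KO 0.002, -2.89 and -0.61. The KO 24 h replicate 2 is low through 1 spot, -6.55 in Cy3 against 0.77 in Cy5, and this spot sets the SE of 0.45 for Ier2 at every time.

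Averaged over time Ier2 was -0.59 ± 0.20 in KO against WT and missed the threshold (adjusted p = 0.0632). Without KO 24 h replicate 2 it was -0.42 (adjusted p = 0.0436), and without both doubted replicates -0.49 (adjusted p = 0.00215). At single times it was 0.056 at 0 h, -0.47 at 0.5 h, -0.79 at 2 h, -0.59 at 12 h and -1.15 at 24 h, with adjusted p from 0.147 to 0.999. The 24 h value rests on KO 24 h replicate 2: without it the difference was -0.28 (adjusted p = 0.705), and on the Cy5 arrays alone it was -0.074.

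Atf3, a stress-induced bZIP repressor and activator, was not called between genotypes. At 0.5 h WT read 0.22, 0.37 and 0.25 and KO -0.18, -0.18 and -0.19. The KO replicates lay below the WT replicates and close to each other (-0.47 ± 0.16, adjusted p = 0.104). At the other times the genotypes overlapped, with differences from -0.23 to 0.14, and averaged over time it was -0.16 ± 0.08 (adjusted p = 0.217). Klf6, a Krüppel-like zinc finger transcription factor, was higher in untreated KO (0.25, 0.27 and 0.32) than in untreated WT (0.16, -0.19 and -0.59), without overlap but also without a call (0.49 ± 0.23, adjusted p = 0.929). At 2 h its WT replicates read 0.35, 0.70 and 0.51 and its 2 complete KO replicates 0.31 and 0.145 (-0.29 ± 0.25, adjusted p = 0.885). Averaged over time Klf6 differed by -0.0039 ± 0.11 (adjusted p = 0.988).

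Btg2, an antiproliferative protein that recruits the deadenylase complex to mRNAs, had a lower mean in KO up to 2 h and a higher one at 12 and 24 h. At 0.5 h WT read -0.45, 0.033 and 0.40 and KO -0.43, -0.67 and -0.48. At 2 h WT read 0.26, 0.38 and 0.40 and KO 0.077, -0.095 and -0.18. KO lay below WT at 2 h without overlap (-0.41 ± 0.16, adjusted p = 0.409), and at 0.5 h 1 WT replicate lay among the KO values (-0.52 ± 0.16, adjusted p = 0.0652). At 12 h the 2 complete WT replicates read -1.07 and -1.04 and KO -0.74, -0.78 and -0.70. At 24 h WT read -0.52, -0.64 and -0.87 and KO -0.32, -0.13 and -0.18. KO now lay above WT without overlap at both times, by 0.32 ± 0.18 (adjusted p = 0.468) and 0.47 ± 0.16 (adjusted p = 0.101). Untreated, WT read 0.046, -0.26 and -0.23 and KO -0.655, -0.78 and -0.26 (-0.41 ± 0.16, adjusted p = 0.835). The averaged difference of -0.11 ± 0.07 (adjusted p = 0.391) cancels the 2 signs.

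The second question was how the genes moved after HGF in each genotype, and 3 of the 40 results of the 5 tested members were called, all decreases in WT. At 12 h, 2 of the 5 were called in WT (Btg2 and Atf3), against 5.81% of all tested probes, and at 24 h 1 of the 5 (Btg2), against 8.72%. At 0.5 and 2 h none was called, beside 0.123% and 0.446% of probes. In KO none was called at 0.5, 2, 12 or 24 h, beside 0.00686%, 0.0343%, 0.13% and 3.48%.

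Btg2 in WT went from 0.046, -0.26 and -0.23 untreated to -1.07 and -1.04 at 12 h, so that both complete replicates at 12 h lay below all untreated ones. The decrease of -0.90 ± 0.18 (1.87-fold, adjusted p = 0.00456) was read on both dyes, -0.80 in Cy5 (adjusted p = 0.114) and -0.94 in Cy3 (adjusted p = 0.0158). At 24 h Btg2 was still 1.44-fold lower than untreated (-0.53 ± 0.16, adjusted p = 0.0432), but -0.99 in Cy5 and -0.066 in Cy3, and this call held in 19 of 28 fits that left out 1 replicate. Among the compared groups it was lost without any of the 3 untreated WT replicates or without WT 24 h replicate 2 or 3, with an adjusted p of up to 0.171 (without WT 0 h replicate 1). The other 4 losses, without WT 0.5 h replicate 2, WT 2 h replicate 2 or 3 or KO 0.5 h replicate 3, lay between 0.0505 and 0.0517. After scale normalization Btg2 was not called at 12 h (-0.61, adjusted p = 0.136) or at 24 h (-0.44, adjusted p = 0.16). In KO the change of Btg2 was -0.18 ± 0.16 at 12 h and 0.35 ± 0.16 at 24 h (adjusted p = 0.898 and 0.276). Atf3 in WT went from 0.29, 0.15 and 0.22 to -0.63, -0.64 and -0.35 at 12 h without overlap (-0.76 ± 0.16, 1.695-fold, adjusted p = 0.00847), by -0.52 in Cy5 and -1.01 in Cy3, neither called alone (adjusted p = 0.173 and 0.054). At 24 h it was -0.48 ± 0.18 in WT (adjusted p = 0.115) and -0.48 ± 0.16 in KO (adjusted p = 0.12). Beside these late decreases, 3 of 7 tested hepatocyte markers fell in WT at 12 h and 4 of 7 at 24 h (median of the list -0.65 and -1.03), and 5 of 7 fell in KO at 24 h, and their part in the results was not tested. In these comparisons 5.81%, 8.72% and 3.48% of all tested probes were called. In these bulk cultures fewer cells of a type and less RNA per cell cannot be told apart. With the doubted WT 0 h array turned, all 3 decreases were called. Fitted on the compared groups alone, neither 12 h decrease was called (adjusted p = 0.0647 for Btg2 and 0.0637 for Atf3).

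**Figure D3:**
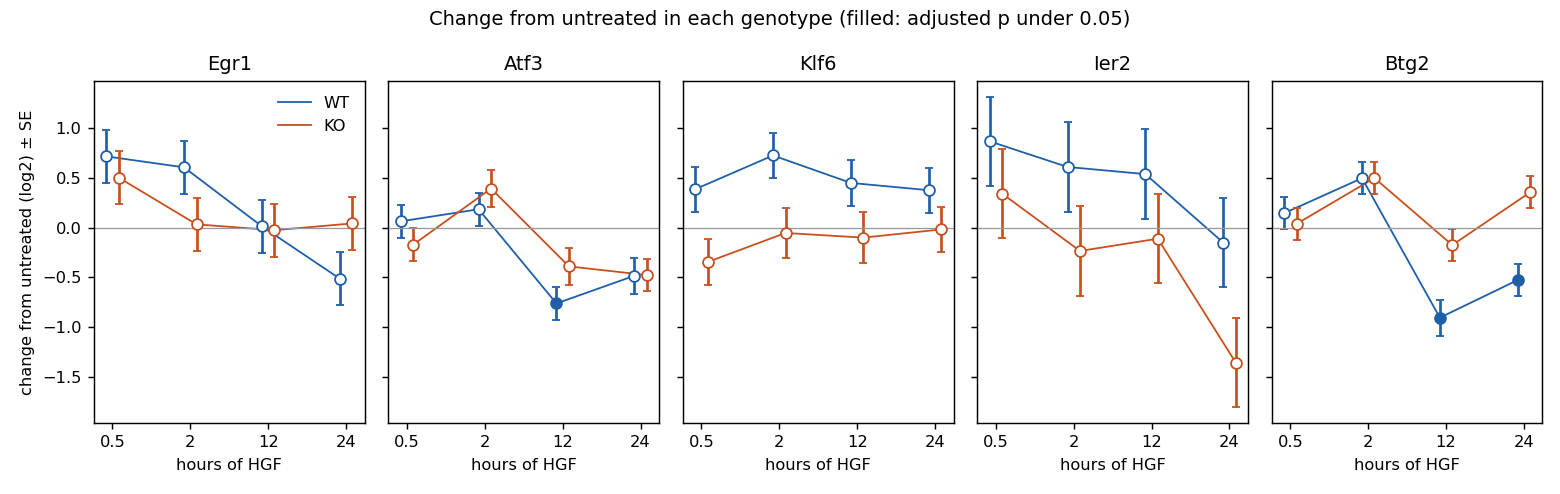
Change from untreated in log2 ± SE (y axis) of the 5 tested members at 0.5, 2, 12 and 24 h of HGF (x axis, not to scale), WT in blue and KO in orange, with filled symbols for an adjusted p under 0.05. Only WT Btg2 at 12 and 24 h and WT Atf3 at 12 h are filled.

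The early times, at which this gene class is known to respond, gave no call against the replicate spread. In WT all 5 members stood higher than untreated at 0.5 h and at 2 h in their means, where 44.8% and 53.2% of all tested probes stood lower. These changes share the same 3 untreated WT replicates, 1 of them doubted. Ier2 was 0.87 ± 0.45 and Egr1 0.72 ± 0.27 higher at 0.5 h (adjusted p = 0.372 and 0.233), and Klf6 was 0.72 ± 0.23 higher at 2 h (adjusted p = 0.157). Without the doubted untreated WT replicate the 0.5 h change of Egr1 was 0.26 (adjusted p = 0.953). With all replicates it was 1.43 on the Cy3 arrays and -0.003 on the Cy5 arrays. The 0.5 h WT replicates of Egr1, from 0.94 to 1.01, lay above the 3 untreated ones, from -0.63 to 0.81. For Klf6 both dyes gave the same change at 2 h (0.73 in Cy5 and 0.72 in Cy3). Of 42 alternative settings, 4 called this change (lowest adjusted p = 0.00642). For the 2 h change in WT, 1 of 47 called Egr1 (adjusted p = 0.0406) and 1 of 44 called Btg2 (adjusted p = 0.0171). None called Ier2 or Atf3 there. Among those that called Klf6 was the fit held to the 2 largest array sets, where its change was 0.53 (adjusted p = 0.0339). That fit leaves out the doubted WT 0 h replicate. It takes the untreated replicates from 1 set and the 2 h replicates from the other, so set and HGF cannot be told apart in it. Ier3 and Zfp36 were 0.64 ± 0.25 and 0.33 ± 0.17 higher in WT at 0.5 h, and under the looser filter none of their 30 results other than KO against WT was called. In these 15 comparisons 0.00561% to 13.6% of all probes were called (median 0.37%).

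In KO, Egr1 was 0.50 ± 0.27 higher at 0.5 h than untreated (adjusted p = 0.9999), with KO replicates of 0.14, 0.24 and 0.40 above -0.22, 0.004 and -0.50, and was near untreated at 2, 12 and 24 h (0.033, -0.026 and 0.042). Ier3 was 0.40 ± 0.25 higher at 0.5 h. Btg2 and Atf3 had their highest KO means at 2 h, above untreated by 0.50 ± 0.16 and 0.39 ± 0.18 (adjusted p = 0.742 and 0.836). Klf6 was lower than untreated at 0.5 h in KO (-0.35 ± 0.23, adjusted p = 0.9999).

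Whether the response to HGF itself differed between the genotypes was tested as KO change minus WT change. None of the 20 results of the 5 tested members was called, beside 0.00686% of all tested probes at 0.5 h, 0.0274% at 2 h, 0.0754% at 12 h and 0.727% at 24 h. The difference nearest to the threshold was that of Btg2 at 24 h, 0.88 ± 0.23 (adjusted p = 0.0804, or 0.0377 with the doubted WT 0 h array turned). For Klf6 the difference was -0.73 ± 0.32 at 0.5 h and -0.78 ± 0.34 at 2 h (adjusted p = 0.531 and 0.9995). For Egr1 the difference was -0.21 ± 0.38 at 0.5 h and -0.57 ± 0.38 at 2 h (adjusted p = 0.882 and 0.9995). So a smaller Egr1 response in KO was not shown.

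The step from 0.5 to 2 h, which lies within 1 array set for all but 1 replicate, called none of the 5 members in WT, where 14.5% of all tested probes were called, none in KO (0.871%) and none in the difference of the steps (0.343%). In WT, Egr1 differed over this step by -0.11 ± 0.27 (adjusted p = 0.807) and in KO it was -0.47 ± 0.27 (adjusted p = 0.431), all 3 KO replicates at 2 h lying below those at 0.5 h. Btg2 stood higher at 2 than at 0.5 h in both genotypes, by 0.35 ± 0.16 in WT and 0.46 ± 0.16 in KO (adjusted p = 0.142 and 0.176).

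**Figure D4:**
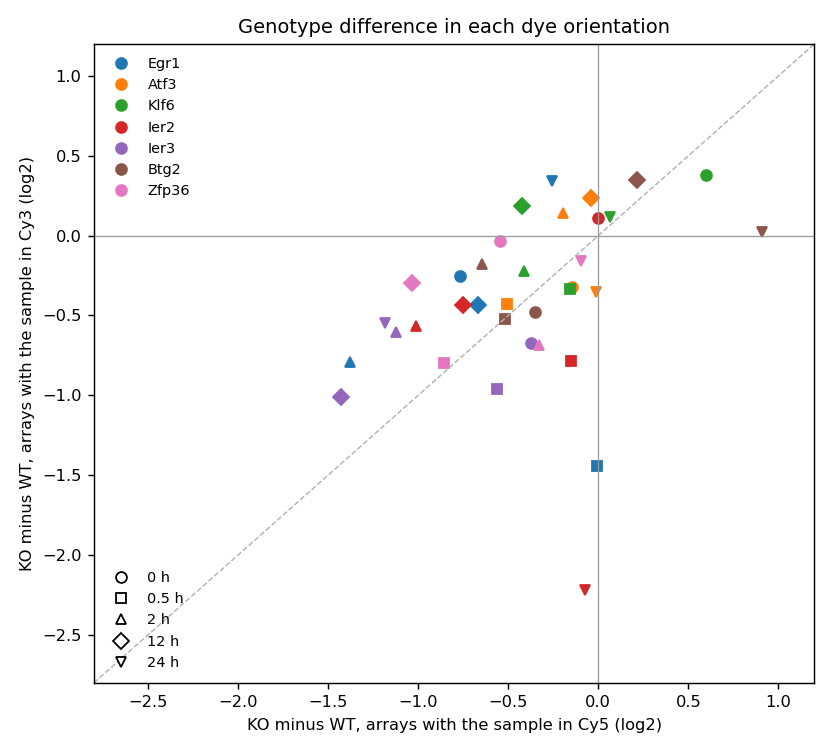
KO minus WT log2 difference of each member at each time on the arrays with the sample in Cy5 (x axis) against those with the sample in Cy3 (y axis), coloured by member, with marker shape for time and the dashed line for equal values. Of 35 points, 26 lie below 0 on both axes, and Egr1 at 0.5 h and Ier2 at 24 h lie far below 0 in Cy3 and near 0 in Cy5.

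Since each dye orientation is a separate hybridisation of the same RNA, the genotype difference was also read in each. Of the 35 differences (7 members at 5 times), 26 were lower in KO in both orientations, 5 higher in both and 4 of opposite sign. The 4 were Egr1 at 24 h, Atf3 at 2 and 12 h and Klf6 at 12 h. For Ier3 the sign was negative in both orientations at all 5 times, and so it was for Zfp36. At 2 h the Cy5 value of both genes rests on 1 KO array, and at 24 h the Cy3 value of Zfp36 rests on 1 WT array. Untreated, Zfp36 differed by only -0.031 in Cy3. The 5 times of a gene are read on 1 probe, and the share of all probes lower in both orientations was not counted. These counts take sample over reference in both orientations, and with the Cy3 arrays turned 4 of the 35 have the same sign and 31 opposite signs.

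Among 61 further immediate early genes, 57 were on the array and 44 were tested. Averaged over time 9 of the 44 were lower in KO and 0 higher, beside 5.15% lower and 5.05% higher of all tested probes, with a median log2 difference of -0.022 over the list and -0.0045 over all tested probes. The 9 were Junb (-0.77 ± 0.10), Klf9 (-0.71 ± 0.10), Maff (-0.66 ± 0.12), Dusp1 (-0.65 ± 0.13), Hbegf (-0.56 ± 0.07), Btg1 (-0.56 ± 0.09), Gadd45a (-0.50 ± 0.08), Mafk (-0.34 ± 0.07) and Plk3 (-0.32 ± 0.06). Junb is a Jun family transcription factor, Dusp1 a phosphatase of the kinases that induce these genes, Hbegf a ligand of the EGF receptor and Btg1 a relative of Btg2. At 0.5 h 6 of the 44 were lower (Hbegf, Gadd45a, Mafk, Junb, Btg1 and Plk3) and 1 was higher (Id1), beside 2.3% lower and 2% higher of all tested probes. At 2 h Junb alone was lower (0.117% of all probes lower), at 12 h 4 were lower, Klf9, Junb, Btg1 and Hbegf (1.55% of all), and at 24 h 2 were lower, Klf9 and Junb (2.36% of all). After HGF in WT the list had 1 call at 0.5 h, Hbegf (1.25 ± 0.15), and 1 at 2 h, Jun (0.95 ± 0.20), both higher than untreated, where 0.11% and 0.123% of all probes were higher. At 12 h, when Btg2 and Atf3 were lower, 3 of the 44 were higher and 0 lower: Ccn2 (2.69 ± 0.45), Plk2 (1.02 ± 0.31) and Btg1 (0.70 ± 0.20), beside 2.65% of all probes higher. At 24 h 4 were higher (Ccn2, Plk2, Bhlhe40 and Plk3) and 1 lower (Per1, -0.63 ± 0.14), beside 3.96% higher and 4.76% lower of all probes.

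Among all tested probes with 1 gene symbol, those most like Egr1 over the 30 replicates, by Pearson's r, were Sqstm1 (0.80), the chemokine Cxcl2 (0.80), Ptpn14 (0.77), Snora81 (0.76) and Hbegf (0.76), each over 28 to 30 replicates that share arrays and groups. The closest to Ier2 was Phlda1 (0.94, or 0.84 without KO 24 h replicate 2), to Atf3 Uty (0.89), to Klf6 Ywhaz (0.78) and to Btg2 Irgm1 (0.76). Over all replicates, which mixes differences between groups with those within them, r among the members was highest for Egr1 with Zfp36 (0.74 over 25 replicates), for Btg2 with Atf3 (0.71 over 26) and for Ier3 with Zfp36 (0.67 over 25). Egr1 and Ier2 had r = 0.60, or 0.86 without KO 24 h replicate 2. Btg2 and Ier3 had r = -0.0052. Within groups the order differed: Egr1 with Ier3 (0.88) and Klf6 with Ier3 (0.83) led, Egr1 with Zfp36 had 0.50 and Btg2 with Atf3 0.24. In WT 0 h, WT 24 h and KO 24 h, replicate 3 was the lowest for Egr1, Ier3 and Klf6. Its arrays come from 1 set, and the other Cy5 arrays of these groups from another. WT 2 h replicate 1 was also the lowest of its group for these genes. The part of array set and single arrays in these r values was not tested.

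Markers of other liver cells were read beside these differences. Averaged over time, 2 of 4 tested endothelial markers were lower in KO (Dnase1l3, -0.48 ± 0.10, and Clec4g, -0.32 ± 0.09), 1 of 6 Kupffer cell markers was higher (Mpeg1, 0.36 ± 0.10), 1 of 4 stellate cell markers was higher (Acta2) and 1 of 5 bile duct markers was lower (Cftr). No lymphocyte marker of 3 was called, and 1 of 7 hepatocyte markers was higher (Cps1, 0.49 ± 0.10). At 0.5 h, when Zfp36 was lower, 4 markers were called: Cps1 (1.18) and the lymphocyte marker Nkg7 (1.195) higher, and the stellate cell marker Dcn (-1.13) and Cftr (-1.17) lower. At 12 h, when Ier3 and Zfp36 were lower, Dnase1l3 alone was called (-1.32), and at 24 h Dnase1l3 (-0.89) and the bile duct marker Krt7 (-0.55) were lower and Mpeg1 (1.23) higher. Of all tested probes 10.2% were called averaged over time, 4.3% at 0.5 h, 2.84% at 12 h and 4.77% at 24 h. Averaged over time the lists ranged from -0.48 to -0.062 for endothelial and from -0.20 to 0.36 for Kupffer cell markers, and their part in the lower Egr1, Ier3 and Zfp36 was not tested. Untreated hepatocyte markers lay between -0.75 and 0.39 of the WT hepatocyte pool, and a ratio to that pool cannot show whether a marker is absent. Met itself was not called on its 1 probe (averaged 0.075 ± 0.08, adjusted p = 0.644), whose place relative to the deleted part is not known here, so it does not check the genotype labels.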

How the data were processed

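RNA of primary mouse hepatocytes was read on 60 arrays of 2 colours, 2 dye orientations for each of 30 replicates. The authors deposited 1 log2 ratio per probe and array against pooled WT RNA; base 2 was taken from the range of the values (up to 11.6 in size), array medians lay between -0.15 and 0.14, and their background correction and normalization are not given in the sources used here. Arrays held 17356 to 21511 values, and their number limits the precision. Here each array was centred on its median, both orientations were averaged per replicate (both required), and probes with at least 2 of 3 replicates in every group were fitted with 1 mean per group in limma 3.58.1 (R 4.3.3; 19 residual degrees of freedom). Tests were two-sided with Benjamini-Hochberg adjustment over 14580 probes; KO against WT averaged over time used genotype and replicate number as a random block. The labels say that cultures came from separate mice, which times may share. Probes were named from the platform annotation with symbols updated through RefSeq (16076 with 1 symbol, 288 with several, 5633 with none). All 7 members were named whether or not tested, with the 5 genes most like Egr1, the 1 most like each other tested member, and called genes of the other list. On simulated data for these 14580 probes, 38 of 50 probes changed by a log2 difference of 1 and 14 of 50 changed by 0.5 were called. The change was put into KO 2 h only, and the noise was independent with 1 spread per probe in all groups. Real groups differed in spread, from 0.167 in WT 2 h to 0.43 in KO 24 h. So these counts do not give the rate for the real comparisons. The members and lists were chosen with earlier results of these data known. Alternatives covered centring, scaling, dyes, sign, filters, samples fitted, weights, array sets, blocks and each replicate left out.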

Additional observations from a re-analysis of the deposited data

Results flagged for a closer look

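In each group of 6 arrays (3 replicates in both dyes, fewer where a value was missing), a member's extreme array was compared with its nearest neighbour. The gap was taken as a share of the group's range. Of 70 such groups, 6 held an array beyond Dixon's 95% value. Chance flags about 1 in 20 groups of independent values. The 2 dye arrays of a replicate read the same RNA and are not independent, so that rate does not apply here. Of the 6, 3 were the Cy3 array of WT 2 h replicate 1. Egr1 read -1.01 there, with the other 5 arrays from 0.923 to 1.63. Ier2 read -0.427 on it, against 0.82 to 1.3, and Ier3 read -1.19, against -0.078 to 0.514. Ier2 read -6.55 on the Cy3 array of KO 24 h replicate 2, against -0.669 to 0.772. Zfp36 read -0.037 on the Cy5 array of WT 0.5 h replicate 1, against 0.634 to 0.92, and 0.147 on the Cy3 array of KO 12 h replicate 2, against -0.327 to -0.214.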

How the results depend on the processing

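Of the 25 genotype results at single times, 0 were called with all settings as reported, 5 with array set as a term, 4 each on the compared groups alone, weighted by group spread or within array sets, 2 each after scale normalization or without the 2 doubted replicates, and 1 each on Cy3 arrays only, with the WT 0 h replicate 3 Cy5 array turned, with the stricter probe filter, with dye profiles removed or on single arrays with a dye term (an alternative chosen after seeing the data). Leaving out 1 replicate gave 0 to 2. Of the 40 results against untreated, 3 were called, and 5 within array sets. On Cy5 or Cy3 arrays only it was 1 each, and 0 with the Cy3 arrays turned, the stricter filter or the compared groups alone. Leaving out 1 replicate gave 1 to 4. Within array sets means 1 set for 0, 12 and 24 h and another for 0.5 and 2 h. So at 0.5 and 2 h that setting cannot tell set and HGF apart. With the Cy3 arrays turned, the WT 12 h changes reversed, to 0.24 for Atf3 and 0.10 for Btg2. Response differences had 0 calls, and 1 each with the WT 0 h replicate 3 array turned, array set as a term or dye profiles removed; leaving out 1 replicate gave 0 to 1. The step from 0.5 to 2 h had 0 calls, 3 each on the compared groups alone or weighted, 2 each after scale normalization or with array set as a term, and 1 on Cy3 arrays only; leaving out 1 replicate gave 0 to 1. Averaged over time 1 member was called, 0 on Cy3 arrays only or with them turned, and 2 after scale normalization, with the WT 0 h replicate 3 array turned, without the doubted replicates, weighted, with dye profiles removed, within array sets or on single arrays; leaving out 1 replicate gave 1 to 2. The share of all probes called moved too: for genotype at single times it was 2.48% as reported, 8.03% with array set as a term, 6.61% within array sets, 5.99% weighted, 4.27% on the compared groups alone and 3.49% after scale normalization; against untreated 2.34% as reported, 5.79% within array sets and 0.132% on the compared groups alone; for the step 5.25% as reported, 20% weighted, 18.5% with array set as a term and 18.2% on the compared groups alone; averaged 10.2% as reported, 19.9% within array sets, 18.4% without the doubted replicates, 17.1% with the WT 0 h replicate 3 array turned and 2.62% on Cy3 arrays only. The cause was not tested.

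Replicate numbers did not pair the samples: the best match of a replicate had its own number for 10 of 30 (median r of same-numbered replicates -0.018). With the replicate block the counts of calls were the same (0, 3, 0 and 0), with Egr1 at 2 h at -1.09 (adjusted p = 0.0658), and without the block the averaged Egr1 difference had an adjusted p of 0.00224. Ier3 and Zfp36 could not be fitted without KO 2 h replicate 1.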
